A study of Mus musculus with 4 samples.

Results

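The bHLH-PAS factors are DNA-binding proteins that work in pairs, and BMAL1, the protein missing from the *Bmal1* KO embryonic stem cells (ESCs) studied here, belongs to this family. The family was followed through 9 genes listed by name, as members of the family, and no measured value enters the rule. The genes were, however, chosen with earlier results of these data known. They are *Arntl* (which encodes BMAL1), its paralog *Arntl2* (BMAL2), *Clock*, *Npas2*, *Arnt*, *Arnt2*, *Hif1a*, *Epas1* and *Ahr*. All 9 were found among the 19645 features of the RNA-seq tables, of which 17710 carry a gene symbol. Their measured quantity is FPKM, a count of sequenced fragments divided by transcript length and by library size, so the levels of genes of different length can be set side by side.

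Each protein of this family carries a basic helix-loop-helix region, which touches DNA, and PAS domains, through which it chooses its partner. BMAL1 and ARNT, with their paralogs BMAL2 and ARNT2, are the shared partners. CLOCK or its paralog NPAS2 binds BMAL1 to drive circadian transcription from E-box elements, HIF1A or HIF2A (encoded by *Epas1*) binds ARNT in low oxygen, and AHR binds ARNT after it has bound an aromatic ligand. ESCs are known for lacking circadian oscillation while they stay undifferentiated.

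The 4 libraries were 2 of WT mouse ESCs and 2 of *Bmal1* KO mouse ESCs made with CRISPR-Cas9. Both were kept undifferentiated on gelatin in serum with LIF, without treatment. The KO line is a single picked clone with a frameshift deletion in exon 5 of *Arntl*, and the labels do not say whether the replicates were separate cultures. Differences between the genotypes therefore cannot be told apart from differences between the lines or cultures, and p-values measure only the spread between these libraries. With 2 libraries against 2, an exact permutation test on a single value cannot give a p below 0.333.

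The libraries held the ESC markers *Pou5f1* and *Dppa5a* at 1389 FPKM or more in each, and the summed FPKM of 8 ESC markers was between 5886 and 6431. The summed FPKM of the 6 fibroblast markers in the tables was 4.97 and 4.81 in WT and 6.27 and 5.92 in KO, nearly all of it *Thy1* and *Twist1*, while the collagen genes *Col1a1*, *Col1a2* and *Col3a1* did not exceed 0.217 FPKM. Genes of chromosome Y set the lines apart. *Ddx3y*, a Y-linked RNA helicase, was 0.235 and 0.403 FPKM in WT and 16.4 and 20.6 FPKM in KO (log2 fold change 5.49, adjusted p = 0.00115), *Eif2s3y* and *Uty* rose likewise (log2 fold changes 4.76 and 4.44), and *Kdm5d* was at or below 0.0168 FPKM in every library. The part of this difference between the lines in the values below was not tested. Features without a symbol took between 18.1% and 37.3% of the summed FPKM of a library, and the number of reads behind each library is unknown.

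The target site of the edit that separates the groups is shown first, because it bears on what *Arntl* RNA can tell. The files give *Arntl* as ENSMUSG00000055116.8, on the plus strand of chromosome 7 from 113207465 to 113314126 (GRCm38), and the annotation lists 6 transcripts, 4 of them protein-coding. The study's oligonucleotide list holds 2 guides that overlap each other on opposite strands. Each is printed with its PAM, the motif that Cas9 needs beside its target, in capitals.
sgRNA 1, minus strand, chr7:113280723-113280742: gaaccggagagtaggtcggtGGG
sgRNA 2, plus strand, chr7:113280725-113280744: cgacctactctccggttcccTGG
Both match exon 5 of the 20 exons of transcript Arntl-201, and 57 and 59 bases separate them from the start codon. The coding strand from the start codon to the end of the first site, chr7:113280663-113280742, reads as follows, with that site in capitals.
*Arntl* coding start: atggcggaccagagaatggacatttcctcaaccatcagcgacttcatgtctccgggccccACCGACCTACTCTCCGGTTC
The paper describes a single guide, and its text does not say which of these guides it was. The target site is not the deletion of the KO clone, whose bases are not printed here. The site covers 20 bases of a transcript of 2908 bases, whereas FPKM is counted over the whole gene. The level of *Arntl* is therefore no check of the KO label.

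In WT ESCs the order of the levels was *Hif1a*, *Arnt*, *Epas1*, *Arntl*, *Clock*, *Ahr*, *Arnt2*, *Arntl2* and *Npas2*. The mean FPKM of *Hif1a* was 766-fold that of *Npas2*. The replicate ranges of neighbours in this order did not overlap for any of the 8 neighbouring pairs in WT, nor in KO. Steps between neighbours in WT were between 1.23-fold, from *Ahr* to *Arnt2*, and 2.37-fold, from *Clock* to *Ahr*, except for the 14.8-fold step from *Arntl2* to *Npas2*. In KO, 7 of the 9 genes held the same rank, and *Arnt2* and *Ahr* had changed places. Thus ESCs of both genotypes held mainly the hypoxia and ARNT branch of the family, with *Arntl* above *Clock* and the clock paralogs *Arntl2* and *Npas2* at the bottom.

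**Figure D1:**
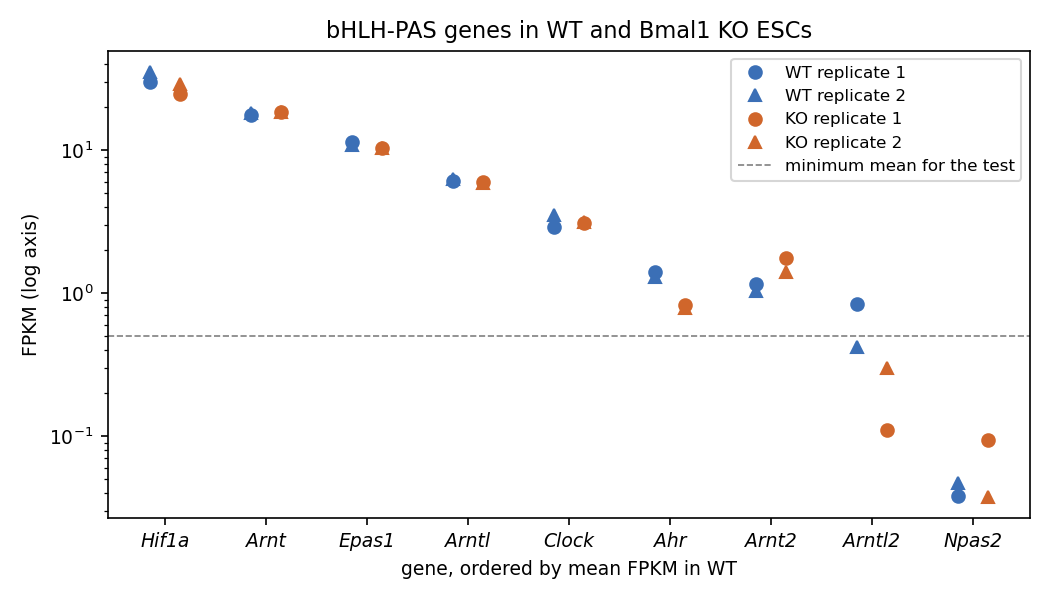
FPKM (log axis) of the 9 bHLH-PAS genes in each of the 4 libraries, ordered by mean FPKM in WT, with circles for replicate 1, triangles for replicate 2 and a dashed line at the minimum mean of 0.5 FPKM used for testing. The points of *Arnt*, *Epas1*, *Arntl* and *Clock* lie close together, those of *Ahr* and *Arnt2* trade places between WT and KO, and *Arntl2* is spread most among the genes above *Npas2*.

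None of the family members passed the test between genotypes, in which replicate numbers were not treated as pairs. Of the 9 genes, 7 reached the minimum mean of 0.5 FPKM and were tested, on the log2(FPKM + 0.1) scale with limma. *Arntl2* and *Npas2* were below this minimum. None of the 7 was called (adjusted p under 0.05 and more than 2-fold), where 4.14% of the 12990 features tested were called, and 0 of the 7 had an adjusted p under 0.05, where 12.5% of all tested features did. At an unadjusted p under 0.05 the count was 1, *Ahr*. The KO and WT ranges did not overlap for 6 of the 7, beside 58.8% of all tested features. The KO values were the higher ones for *Arnt* and *Arnt2* and the lower ones for *Arntl*, *Hif1a*, *Epas1* and *Ahr*, and the ranges of *Clock* overlapped. Over all tested features 27.0% were separated upwards and 31.7% downwards, so separated ranges were common in these libraries. The median log2 fold change was -0.06 over the 7 genes and -0.02 over all features tested.

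**Figure D2:**
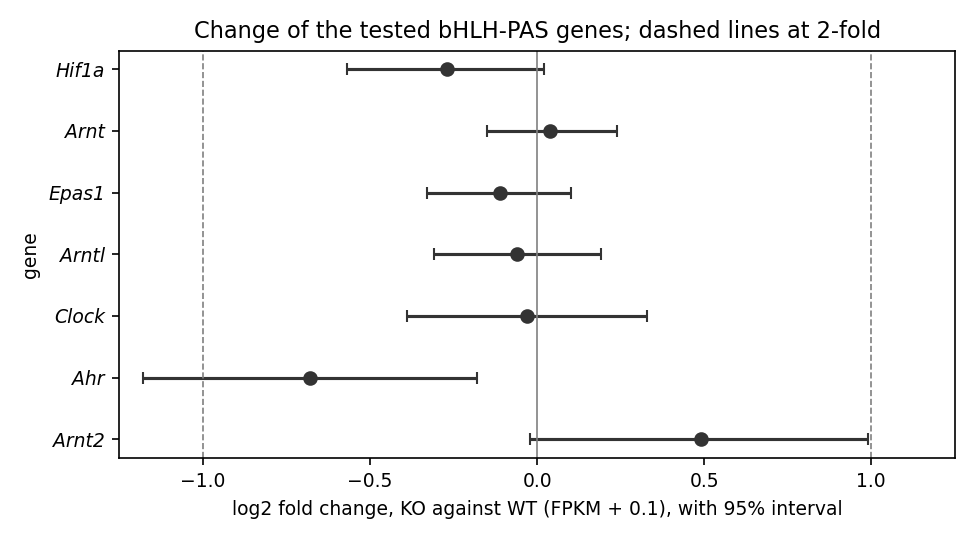
Log2 fold change of KO against WT for the 7 tested genes on the log2(FPKM + 0.1) scale, with 95% intervals from limma as bars and dashed lines at 2-fold. Only the interval of *Ahr*, from -1.18 to -0.18, excludes 0, and its adjusted p is 0.0882.

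*Arntl*, the edited gene, had 6.05 and 6.29 FPKM in WT replicates 1 and 2 and 5.95 and 5.92 FPKM in KO replicates 1 and 2. The KO values were just under the WT ones, with means of 6.17 ± 0.171 in WT and 5.93 ± 0.0152 in KO (SD, n = 2 each). The 95% interval of the change spanned folds from 0.809 to 1.14 around a log2 fold change of -0.06 (adjusted p = 0.750). *Arntl2* encodes BMAL2, which can also pair with CLOCK. Its FPKM was 0.835 and 0.418 in WT and 0.110 and 0.298 in KO. Both KO libraries were below both WT libraries, and the WT mean was 3.07-fold the KO mean, but the replicates themselves differed 2.00-fold in WT and 2.70-fold in KO. When low genes were also tested, its difference was -1.27 on the log2 scale (standard error 0.46, adjusted p = 0.195). Without KO replicate 1, its mean passed the minimum and the value was -0.81 (adjusted p = 0.399). *Arntl2* lies on chromosome 6 from 146805530 to 146833529. The median log2 fold change of the 20 tested features around it was -0.01.

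*Clock* encodes the main partner of BMAL1. Its FPKM was 2.91 and 3.50 in WT and 3.08 and 3.15 in KO. Both KO values fell between the WT values (log2 fold change -0.03, standard error 0.15, adjusted p = 0.905). The 95% interval of the fold was 0.762 to 1.26. The feature that carries the name *Clock* spans 286 kb of chromosome 5, from 76183686 to 76469519, while the annotated gene spans 94.9 kb. The same coordinates are given to *Tmem165*, *Pdcl2* and *Nmu*, so how reads were shared among these genes is uncertain. *Npas2*, the paralog that can replace CLOCK in the brain, was near 0, with 0.0379 and 0.0469 FPKM in WT and 0.0932 and 0.0377 FPKM in KO. Its values overlapped, and between 15.3% and 20.9% of the features with a symbol lay below it in a library.

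*Arnt* encodes the shared partner of the HIF proteins and AHR. Its change had the smallest standard error of the tested members, with 17.5 and 18.1 FPKM in WT and 18.4 and 18.3 FPKM in KO (log2 fold change 0.04, standard error 0.08, adjusted p = 0.751). Its 95% interval spanned folds from 0.899 to 1.18. *Arnt2* encodes a paralog best known from the developing brain. Its FPKM was 1.16 and 1.04 in WT and 1.76 and 1.41 in KO. Both KO values lay above both WT values, with means of 1.10 ± 0.0834 and 1.59 ± 0.249 (SD, n = 2 each). The log2 fold change of 0.49 (standard error 0.20) had an adjusted p of 0.181 and an interval from -0.02 to 0.99, that is, folds from 0.987 to 1.99. *Arnt* lies on chromosome 3 from 95434390 to 95497239 and *Arnt2* on chromosome 7 from 84246275 to 84410038.

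*Hif1a* encodes the oxygen-regulated subunit of HIF1 and was the most abundant member in every library. It had 29.9 and 35.1 FPKM in WT and 24.8 and 28.8 FPKM in KO. The lower WT library and the higher KO library were close, and the means were 32.5 ± 3.64 and 26.8 ± 2.86 (SD, n = 2 each). The log2 fold change of -0.27 (standard error 0.12) had an adjusted p of 0.187. When replicate numbers were treated as pairs, an alternative given at the end, *Hif1a* passed. No label says that they are pairs. *Epas1* encodes the oxygen-regulated subunit HIF2A. Its FPKM was 11.3 and 10.9 in WT and 10.3 in both KO libraries (log2 fold change -0.11, standard error 0.09, adjusted p = 0.444). Both KO values were below both WT values, and the 95% interval spanned folds from 0.795 to 1.08. In bulk RNA, fewer cells that express a gene and less RNA per cell cannot be told apart. Both proteins are mainly controlled by their breakdown in the presence of oxygen, which RNA levels do not show. *Hif1a* lies on chromosome 12 from 73907867 to 73947530 and *Epas1* on chromosome 17 from 86753864 to 86833410.

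*Ahr* encodes the aryl hydrocarbon receptor, a sensor of aromatic compounds, and had the largest change of the tested members. Its FPKM was 1.40 and 1.30 in WT and 0.829 and 0.787 in KO. The groups were well separated, with means of 1.35 ± 0.0655 and 0.808 ± 0.0293 (SD, n = 2 each), a 1.67-fold higher mean in WT. The log2 fold change was -0.68 (standard error 0.20), larger in size than that of 87.4% of the tested features, and its adjusted p was 0.0882. Across the alternatives its adjusted p ran from 0.0308, when the variance was not allowed to follow expression, to 0.246, when a library was left out, and the log2 fold change from -0.73 to -0.38. *Ahr* lies on chromosome 12 from 35497979 to 35534989, and the 20 tested features around it had a median log2 fold change of -0.14, none of them with an adjusted p under 0.05.

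The balance between partners and paralogs was compared as a ratio within each library. The ratios given are of FPKM as deposited, and the differences in log2 ratio are of FPKM + 0.1, which shrinks them where a gene is low. *Arntl* was 7.25 and 15.0 times *Arntl2* in WT and 53.9 and 19.9 times in KO. The KO ratios were above the WT ratios, and the log2 ratio differed by 1.21, with an exact two-sided permutation p of 0.333, the smallest that the design allows. *Arnt* was 15.1 and 17.4 times *Arnt2* in WT and 10.4 and 13.0 times in KO, a difference in log2 ratio of -0.44 (exact p = 0.333). Here the KO ratios were the lower ones. The ratios of *Clock* to *Npas2* (33.1 to 83.6 over the 4 libraries), *Hif1a* to *Epas1* (2.41 to 3.21) and *Arntl* to *Clock* (1.80 to 2.08) overlapped between the genotypes. Their log2 ratios differed by -0.23, -0.16 and -0.02 (exact p = 0.667, 0.667 and 1). Thus *Arntl* was above *Clock* in FPKM in each library, by a similar factor. With 5 pairs compared and no p below 0.333, no ratio could pass an adjustment.

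**Figure D3:**
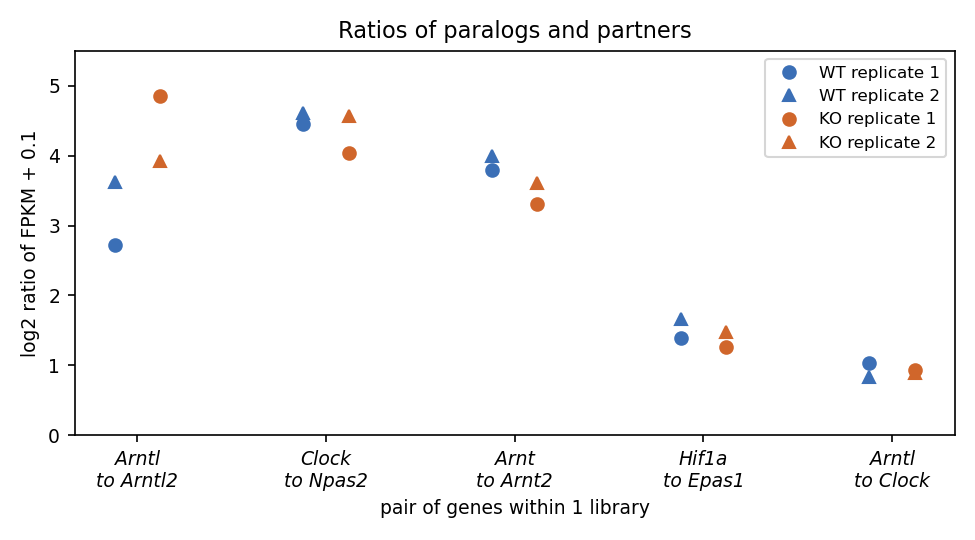
Log2 ratio of FPKM + 0.1 for 5 pairs of paralogs or partners within each of the 4 libraries, with circles for replicate 1 and triangles for replicate 2. The KO points lie above the WT points for *Arntl* to *Arntl2* and below them for *Arnt* to *Arnt2*, and the points of the other 3 pairs overlap.

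Summed by role, the 4 genes of the BMAL and ARNT side had 25.5 and 25.9 FPKM in WT and 26.2 and 25.9 FPKM in KO. The 5 genes of the sensor side (*Clock*, *Npas2*, *Hif1a*, *Epas1* and *Ahr*) had 45.6 and 50.8 FPKM in WT and 39.1 and 43.1 FPKM in KO. Hence the ratio of the sensor sum to the partner sum was 1.79 and 1.96 in WT and 1.49 and 1.66 in KO. The ranges did not overlap, and *Hif1a*, which alone was between 38.0% and 45.7% of the FPKM of the 9 genes, weighs most in this ratio. *Arnt* was between 23.6% and 28.1% of that sum, *Arntl* between 8.20% and 9.10%, and *Clock* between 4.09% and 4.72%. These sums were formed after the values were seen and were not tested.

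Genes whose values over the 4 libraries followed those of a member most closely were sought for *Arntl* and for *Ahr*, as the root mean square difference of log2 values centred on their own mean. For *Arntl* they were *Mtpap*, *Nfx1* and *Copa*, at differences of 0.0014, 0.0070 and 0.0073. However, 842 of 11943 features lay within 0.05 of *Arntl*, as a nearly level pattern is common. For *Ahr* they were *Ppp1r13b*, *Cobl* and *Pecr*, at 0.0236, 0.0252 and 0.0254, and 32 features lay within 0.05.

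Of 10 further genes with a bHLH-PAS region, 9 were in the tables, 4 were tested and 0 passed an adjusted p under 0.05 (median log2 fold change 0.02). *Ncoa3*, a coactivator of nuclear receptors, was the highest, with 29.8 and 29.7 FPKM in WT and 34.8 and 34.2 FPKM in KO (log2 fold change 0.21, adjusted p = 0.122). Its relative *Ncoa1* had a log2 fold change of -0.17 (adjusted p = 0.389). *Ncoa2*, named after its values were seen, had the lowest adjusted p of the list, 0.0853 at a log2 fold change of -0.41. *Hif3a*, a HIF subunit that can restrain the others, was between 0.521 and 0.871 FPKM. The neuronal factors *Npas1*, *Npas3* and *Npas4*, the developmental factor *Sim2* and the AHR repressor *Ahrr* stayed below the minimum, the highest value among them being 0.278 FPKM.

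Some of the known E-box targets of CLOCK and BMAL1 rose in KO. Of 16 such genes 12 were tested, 3 rose in KO (adjusted p under 0.05, where 6.85% of all tested features rose) and 0 fell, with a median log2 fold change of 0.23. Without the filter on low values the median over the 16 genes was 0.36 and 4 rose, and without WT replicate 2 the median of the 12 was 0.15. *Bhlhe40*, a repressor that competes for E-boxes, rose from 2.62 and 2.79 FPKM to 12.2 and 10.0 FPKM (log2 fold change 1.99, standard error 0.13, adjusted p = 0.00226). *Dbp*, a clock output factor of the PAR bZIP family, rose from 1.65 and 1.50 to 4.40 and 4.17 FPKM (log2 fold change 1.39, standard error 0.14, adjusted p = 0.00576). Both were also called at more than 2-fold, as were 2.72% of the tested features in that direction. *Tef*, of the same family as *Dbp*, rose from 4.16 and 3.57 to 6.92 and 6.51 FPKM (log2 fold change 0.78, standard error 0.13, adjusted p = 0.0174). The features of *Bhlhe40* and *Dbp* share their coordinates with 0610040F04Rik and *Sphk2*, respectively, so part of their reads may belong to those genes.

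The most abundant of these targets did not pass the test. *Wee1*, a mitotic kinase, was between 22.5 and 23.5 FPKM (log2 fold change 0.02, adjusted p = 0.888), and *Cry1*, a repressor of CLOCK and BMAL1, was between 18.5 and 19.8 FPKM (log2 fold change 0.05, adjusted p = 0.746). The period gene *Per1*, named after its values were seen, had 4.98 and 3.92 FPKM in WT and 6.31 and 5.26 FPKM in KO (adjusted p = 0.193). Below the minimum, *Bhlhe41*, the paralog of *Bhlhe40*, was 0.0143 and 0.00794 FPKM in WT and 0.219 and 0.257 FPKM in KO, *Per2* was 0.154 and 0.247 against 0.409 and 0.339, and *Hlf* was 0.149 and 0.176 against 0.323 and 0.286. In these 3 genes both KO values were above both WT values, as they were in 27.0% of all tested features. *Per3* and *Ciart*, named after their values were seen, were separated the other way. *Per3* had 1.46 and 1.33 FPKM in WT and 0.998 and 1.18 FPKM in KO (adjusted p = 0.327).

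The E-box letters CACGTG, read on both strands, were then sought in RefSeq promoters (250 bases before to 50 bases after the gene start, GRCm38.p6). They are shown because this element is where BMAL1 and its partners bind. A promoter was given for 7 of the 9 members, and only that of *Hif1a* held the letters, whereas 5 of the 12 E-box targets with a promoter did (*Per1*, *Cry1*, *Tef*, *Bhlhe41* and *Ciart*). Over all, 7.15% of 32851 promoters, or 8.09% of 27025 genes, held them. The motif is in capitals with 12 bases on each side.
*Hif1a*, chr12:73907720-73907749, plus strand: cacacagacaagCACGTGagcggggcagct
*Tef*, chr15:81802534-81802563, plus strand: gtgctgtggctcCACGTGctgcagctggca
*Bhlhe41*, chr6:145865556-145865585, minus strand: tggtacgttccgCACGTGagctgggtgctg
*Per1*, chr11:69098771-69098800, plus strand: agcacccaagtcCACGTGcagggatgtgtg
*Cry1*, chr10:85185097-85185126, minus strand: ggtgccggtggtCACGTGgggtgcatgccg
These motifs begin at positions -135, -127, -153, -166 and -60 relative to the given start. Of the 3 targets that rose, *Tef* held the letters, the promoter of *Dbp* did not, and no promoter was given for *Bhlhe40*. *Cry1*, *Per1* and *Ciart*, which held them, did not pass the test. *Ciart*, whose windows are not printed, had 15.0 and 12.8 FPKM in WT and 12.5 and 10.3 FPKM in KO (adjusted p = 0.208). A match of letters is no proof of a bound site.

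None of the listed genes that act on *Arntl* or on its protein passed the test. Of 6 regulators that bind the *Arntl* promoter 5 were in the tables, 4 were tested and 0 passed (median log2 fold change 0.20). The repressors *Nr1d2* and *Nr1d1* were the highest, with log2 fold changes of 0.12 (adjusted p = 0.593) and 0.35 (adjusted p = 0.295), although *Nr1d1* shares its coordinates with *Thra*. The activator *Rora* was between 0.797 and 1.17 FPKM. Of 7 coregulators of CLOCK and BMAL1, all tested, 0 passed (median log2 fold change 0.08). *Sirt1*, a deacetylase of this complex, was between 30.0 and 34.4 FPKM. *Kat2b*, an acetyltransferase, had 16.0 and 17.5 FPKM in WT and 21.0 and 22.9 FPKM in KO. Its KO values were separated from the WT values, at a log2 fold change of 0.39 and an adjusted p of 0.0507, just above the threshold.

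The genes listed for the control of HIF proteins did not pass the test either. Of 11 symbols listed, 9 were in the tables, as elongins B and C appear under the older symbols *Tceb2* and *Tceb1*, all 9 were tested and 0 passed (median log2 fold change 0.00). *Tceb2* was between 769 and 843 FPKM and *Tceb1* between 141 and 172 FPKM. Their complex with VHL marks HIF subunits for breakdown. *Egln2*, named after its values were seen, had the lowest adjusted p of the list, 0.0809 at a log2 fold change of 0.32. Both KO values were above both WT values for *Egln2* and *Egln3*, and below them for *Vhl*. Such separated ranges, in either direction, were seen in 58.8% of all tested features.

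HIF targets moved in both directions. Of 20 listed genes 18 were tested, 2 rose and 3 fell, with a median log2 fold change of -0.09. Over all tested features 6.85% rose and 5.60% fell. *Hk2*, a hexokinase that starts glycolysis, rose from 30.7 and 29.5 to 73.5 and 69.2 FPKM (log2 fold change 1.24, standard error 0.08, adjusted p = 0.00169), and was the gene of this list called at more than 2-fold. *Kdm3a*, a histone demethylase, rose from 19.5 and 20.8 to 34.5 and 37.7 FPKM (log2 fold change 0.84, standard error 0.09, adjusted p = 0.00604). Both lie on chromosome 6, and their surroundings were higher too. Of the 20 tested features around *Hk2*, 17 rose and the median log2 fold change was 0.92, and of the 20 around *Kdm3a*, 14 rose and the median was 0.89. By contrast the medians around the 9 members were between -0.15 and 0.06.

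Among the targets that fell, *Ldha*, the lactate dehydrogenase subunit of glycolytic cells, went from 888 and 877 to 603 and 587 FPKM (log2 fold change -0.57, standard error 0.07, adjusted p = 0.00989). *Bnip3*, a mitophagy receptor, went from 9.94 and 13.3 to 6.13 and 6.64 FPKM (log2 fold change -0.84, standard error 0.16, adjusted p = 0.0253). *Ankrd37*, named after its values were seen, was the remaining one (log2 fold change -0.58, adjusted p = 0.0262), and it shares its coordinates with *Ufsp2*. The glycolytic enzyme *Eno1* had the highest level of the list, between 1116 and 1254 FPKM, and a log2 fold change of -0.07 (adjusted p = 0.648). *Car9* and *Adm* were below the minimum, at or under 0.264 FPKM. The letters ACGTG are a form of the core that HIF proteins read, and they lie inside the E-box CACGTG. Beside 21.8% of all genes, they were in the promoters of 15 of 19 targets. *Ldha*, *Bnip3*, *Ankrd37* and *Hk2* were among these, but not *Kdm3a*. The related letters GCGTG were in 13 of the 19 promoters, that of *Kdm3a* included, beside 35.2% of all genes.

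The chaperones that hold AHR in the cytoplasm were all tested (4 genes), and 0 passed, with a median log2 fold change of 0.11. *Hsp90ab1* was between 2721 and 3122 FPKM (log2 fold change -0.14, adjusted p = 0.360) and *Hsp90aa1* between 1558 and 2104 FPKM (log2 fold change 0.24, adjusted p = 0.219). Of 8 AHR targets, 3 were tested and 2 rose, beside 6.85% of all tested features. *Aldh3a1*, an aldehyde dehydrogenase, rose from 1.21 and 0.877 to 3.91 and 3.37 FPKM (log2 fold change 1.72, standard error 0.20, adjusted p = 0.00789). *Nqo1*, a quinone reductase that NRF2 also controls, rose from 39.8 and 39.6 to 56.6 and 57.2 FPKM (log2 fold change 0.52, standard error 0.07, adjusted p = 0.0109). Its feature spans 302 kb together with *Nfat5*, *Wwp2* and *Nob1*. *Tiparp*, another target, had a log2 fold change of 0.36 (adjusted p = 0.156).

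The classical targets were near 0. *Cyp1a1* had 0.0324 and 0.0472 FPKM in WT and 0.0176 and 0 FPKM in KO, *Cyp1a2* had 0.146 and 0.169 against 0.0532 and 0, and *Cyp1b1* did not exceed 0.143. Thus *Aldh3a1* and *Nqo1* rose where the values of *Ahr* itself were the lower ones, and the cytochrome genes were too low to be tested. The letters GCGTG are the core read by AHR with ARNT. They were in the promoters of 4 of 7 of the AHR targets (*Cyp1a1*, *Cyp1b1*, *Tiparp* and *Ahrr*), beside 35.2% of all genes. Every E-box target with a promoter held them too, as did most HIF targets, so the letters were not particular to AHR targets. Among the AHR targets that rose, the promoter of *Nqo1* lacked the letters, and no promoter was given for *Aldh3a1*.

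**Figure D4:**
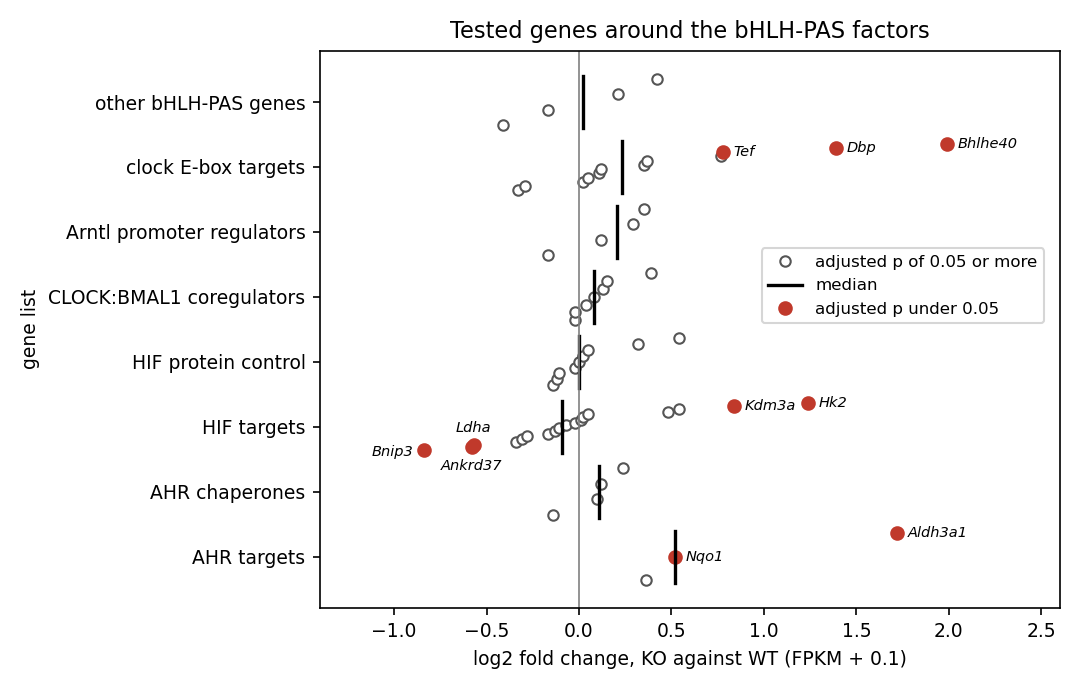
Log2 fold change of KO against WT (log2(FPKM + 0.1) scale) for each tested gene of 8 lists around the bHLH-PAS factors, with filled red points where the adjusted p is under 0.05 and a black bar at each list's median. Red points are seen in 3 lists, the E-box targets (3 higher), the HIF targets (2 higher and 3 lower) and the AHR targets (2 higher).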

How the data were processed

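Total RNA of WT and *Bmal1* KO ESCs (2 libraries each, grouped by their titles) was extracted with Trizol, depleted of ribosomal RNA and sequenced. Per the submitters' processing notes, TopHat2 2.1.1, Bowtie2 2.3.0 and Cufflinks 2.2.1 were used with GRCm38 (mm10), and the authors deposited FPKM per feature. Cufflinks divides the reads of overlapping genes by estimation, and whole reads could not be recovered, so depth is unknown and the replicates alone show the precision.

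FPKM were compared as log2(FPKM + 0.1), for features with a mean of at least 0.5, in limma 3.58.1 (R 4.3.3) with a variance trend and Benjamini-Hochberg adjustment over all 12990 tested features. The adjusted p given come from this test or from the alternative named beside them. In simulated data with independent noise the test called 189 of 190 features changed 4-fold, and 7 unchanged features. Changes of the size seen in the members were not simulated. A pseudocount understates the change of low genes. Ratios were tested by exact permutation (scipy 1.17.1). Tables and plots were made with pandas 2.3.3, numpy 2.4.6 and matplotlib 3.10.9 in Python 3.11.15. Guide sites were placed through GENCODE transcripts of GRCm38.

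The members and gene lists were chosen with earlier results of these data known. Genes named are the members, the listed genes with an adjusted p under 0.05 (at most 4 a list), the 2 highest by FPKM, those below the minimum where few, 3 genes most like *Arntl* and *Ahr*, and 4 of chromosome Y. Exceptions are marked, and 1 listed gene below the minimum is not reported here. Alternatives were 2 other pseudocounts, 2 other filters, 2 scalings, the replicate block, no variance trend, sums by symbol, and each library left out.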

Additional observations from a re-analysis of the deposited data

How the results depend on the processing

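The 7 tested members kept 0 calls under each of the 9 alternatives and with each of the 4 libraries left out. A pseudocount of 1 called 231 features in place of 538, passed 1 coregulator (*Kat2b*) and gave log2 ratio differences of 0.38 for *Arntl* to *Arntl2* and -0.26 for *Arnt* to *Arnt2*. At a pseudocount of 0.01 they were 1.59 and -0.47, and that of *Clock* to *Npas2* was -0.46 in place of -0.23. Without a filter, 951 features and 3 HIF targets had an adjusted p under 0.05, in place of 1618 and 5. A minimum mean of 1, quantile normalization, median-of-ratios scaling and the use of features with a symbol only, which was chosen after seeing the data, each passed 1 coregulator, *Kat2b* (adjusted p = 0.0469, 0.0458, 0.0454 and 0.0318). Without the variance trend 1 member, *Ahr*, passed.

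The replicate numbers were not treated as pairs, as no label or method says that they mark a shared day or batch, although low values share a common ratio most often between same-numbered WT and KO libraries; the difference between replicates 1 and 2 in WT and in KO correlated across features at a Pearson r of 0.071 and a Spearman rho of 0.387. With the replicate block 4052 features (31.2%) had an adjusted p under 0.05. Of these, 1807 were higher and 2245 lower, against 890 and 728 without the block. The features passing with it held 1 member (*Hif1a*, adjusted p = 0.0110), 2 other bHLH-PAS genes, 6 E-box targets (5 higher, 1 lower) and 1 coregulator. They also held 2 HIF control genes, 10 HIF targets (3 higher, 7 lower), 1 AHR chaperone and 3 AHR targets (3 higher).

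With a library left out, limma takes the lone sample to vary like the other group. Between 605 and 820 features were then called, the highest without WT replicate 1, and 1364 to 2032 had an adjusted p under 0.05. Calls were 65.6% higher in KO with all libraries and 49.7% without KO replicate 1. The counts were 0 to 0 for members called, members passing, other bHLH-PAS genes and AHR chaperones, 3 to 4 for E-box targets, 0 to 1 for *Arntl* regulators (1 without WT replicate 1), 0 to 1 for coregulators (1 without WT replicate 2), 0 to 1 for HIF control genes (1 without WT replicate 1 or KO replicate 2), 5 to 5 for HIF targets and 2 to 3 for AHR targets (3 without WT replicate 2). The log2 ratio differences ran from 0.75 to 1.67 for *Arntl* to *Arntl2* (lowest without KO replicate 1), -0.49 to 0.03 for *Clock* to *Npas2*, -0.59 to -0.29 for *Arnt* to *Arnt2*, -0.30 to -0.02 for *Hif1a* to *Epas1* and -0.13 to 0.08 for *Arntl* to *Clock*, and 9 to 9 members kept their WT rank with a WT library left out. The log2 fold change of *Clock* ran from -0.16 without WT replicate 1 to 0.10 without WT replicate 2 (adjusted p = 0.861), where its sign turned. The cause of these shifts was not tested.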

Other observations

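Markers of the germ layers, which ESCs take on when they differentiate, were not level between the lines. Of 11 such genes 6 were tested, 2 rose and 2 fell, beside 6.85% and 5.60% of all tested features. *Sox1*, a factor of early neural cells, rose from 1.32 and 1.38 FPKM to 6.91 and 7.61 FPKM (log2 fold change 2.34, adjusted p = 0.00169), and *Pax6*, a neural and eye factor whose feature is shared with *Elp4* and *Paupar*, rose from 0.466 and 0.859 to 2.28 and 2.36 FPKM (log2 fold change 1.72, adjusted p = 0.0198). *Eomes*, a mesendoderm factor, fell from 2.21 and 2.25 to 0.463 and 0.775 FPKM (log2 fold change -1.73, adjusted p = 0.0154), and *Tubb3*, a neuronal tubulin, fell from 130 and 124 to 82.5 and 74.0 FPKM (log2 fold change -0.70, adjusted p = 0.00827). Of 8 ESC markers, *Klf4* (log2 fold change -0.46, adjusted p = 0.0177) and *Tdgf1* (-0.36, adjusted p = 0.0322) fell and 0 rose. The part of these differences in the values of the bHLH-PAS genes was not tested.

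Low values were set side by side between libraries. Among features under 0.1 FPKM, the commonest ratio of WT replicate 1 to KO replicate 1 was 0.920, shared within 2% by 18.8% of the features, and that of WT replicate 2 to KO replicate 2 was 1.01, shared by 23.0%. In the other 4 pairs of libraries the commonest ratio was shared by between 4.97% and 6.14%. The cause of this was not tested.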
